A study of Homo sapiens with 2 samples.

Results

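The core hepatocyte transcription factors are the small set of DNA-binding proteins that establish and hold liver cell identity. The genes were listed by name and found through the symbol in the array's platform annotation. No measured value enters that rule, but the list was drawn up with earlier results of these data known. The list has 8 genes, CEBPA, HNF4A, HNF4G, FOXA1, FOXA2, FOXA3, ONECUT1 and GATA4. A probe set assigned to that gene alone was found for 7 of them, out of 18417 genes measured in this way, and HNF4A was not analysed here.

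The samples were cultures of Huh-7, a long-established line from a human liver cancer that makes many liver proteins. One group received siRNA against DEPDC1 and the other NC, the transfection control as the labels call it. The siRNA label gives 72 h, and the same time was taken for NC. Each group had 1 array, so the differences have no replicate spread to be set against and no p-value is given. The sources used here give neither the sequence nor the number of the siRNAs. Effects of the siRNA on other transcripts cannot be told apart from effects of losing DEPDC1. The targeted transcript, DEPDC1, had a log2 expression of 5.15 in the siRNA array and 7.82 in the NC array, a difference of -2.67.

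These factors belong to 5 DNA-binding families. CEBPA is a leucine zipper protein that drives terminal hepatocyte differentiation and restrains proliferation. HNF4A and HNF4G are nuclear receptors without a known need for an added ligand. FOXA1, FOXA2 and FOXA3 are forkhead proteins, and FOXA1 and FOXA2 act as pioneer factors that open chromatin at liver enhancers. ONECUT1, also called HNF6, is a cut homeodomain protein of the developing liver, bile duct and pancreas. GATA4 is a zinc finger protein that the mouse embryo needs for growth of the liver bud. The factors bind one another's promoters and enhancers and share many targets, which is why they are often treated as one network.

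The start regions of the members are shown because these genes were lower together in the siRNA array. Start regions from the RefSeq table of GRCh38.p14 are given for 4 of the 7 measured members, and not for GATA4, HNF4G and FOXA2. Each line gives the 250 bases before the annotated start, 5′ to 3′ on the gene's strand, with matches to the searched motifs in capitals.
CEBPA (chr19:33302535-33302784, minus strand): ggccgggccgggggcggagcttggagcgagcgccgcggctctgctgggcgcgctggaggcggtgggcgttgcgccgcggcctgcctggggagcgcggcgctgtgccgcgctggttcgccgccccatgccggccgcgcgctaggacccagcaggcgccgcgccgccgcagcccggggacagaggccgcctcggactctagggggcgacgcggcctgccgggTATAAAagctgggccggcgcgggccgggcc
ONECUT1 (chr15:52790337-52790586, minus strand): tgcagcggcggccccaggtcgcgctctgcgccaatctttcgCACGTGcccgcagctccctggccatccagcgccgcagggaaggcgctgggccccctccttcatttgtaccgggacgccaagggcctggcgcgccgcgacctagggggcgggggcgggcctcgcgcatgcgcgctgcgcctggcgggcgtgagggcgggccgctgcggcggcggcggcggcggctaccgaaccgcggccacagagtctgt
FOXA1 (chr14:37595250-37595499, minus strand): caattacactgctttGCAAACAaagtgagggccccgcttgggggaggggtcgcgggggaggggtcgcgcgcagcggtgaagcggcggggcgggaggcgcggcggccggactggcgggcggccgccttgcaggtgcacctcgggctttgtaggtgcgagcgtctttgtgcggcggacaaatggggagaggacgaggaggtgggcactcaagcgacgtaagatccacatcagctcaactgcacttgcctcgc
FOXA3 (chr19:45864076-45864325, plus strand): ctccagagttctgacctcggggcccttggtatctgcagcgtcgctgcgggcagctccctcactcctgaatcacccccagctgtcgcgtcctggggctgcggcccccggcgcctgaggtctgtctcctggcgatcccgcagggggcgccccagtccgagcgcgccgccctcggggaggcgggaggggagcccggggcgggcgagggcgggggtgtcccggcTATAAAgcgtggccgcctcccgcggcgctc

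The motifs were searched on both strands, and the share of 35116 start regions of the same length that hold each is given beside it. The C/EBP motif TTGCNNAA was in 9.05% of all start regions and the HNF4 motif CAAAGTCCA in 0.325%. The FOXA motif with adenine in the sixth place, TGTTTAC, was in 2.98% of all start regions. Its form with guanine in that place, TGTTTGC, was in 3.23% of them. The ONECUT core motif ATTGAT was found in 5.58% of all start regions. The GATA motif on either strand, AGATAA, was found in 9.17% of them. The TATA box, searched as TATAAA, was found in 10.7% of them. The E-box CACGTG, a site of USF and MYC proteins, was found in 6.34% of them. In CEBPA and in FOXA3 the capitals mark a TATA box, 30 to 25 bases before the start in both. In ONECUT1 they mark an E-box, 209 to 204 bases before the start. In FOXA1 they mark a match to the second FOXA motif, on the opposite strand, 235 to 229 bases before the start. That was the 1 match to a motif of the members' own families in these 4 windows, and no match overlapped another. The windows were rich in G and C, with a share of 67.2% in FOXA1, 75.2% in FOXA3, 76.8% in ONECUT1 and 81.2% in CEBPA, against a median of 58% over all start regions. A match is a description of these letters and not a binding site.

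All 7 measured members were lower in the siRNA array, with a median difference of -0.72 on the log2 scale. Genes counted as detected if either array gave at least 4.66, the midpoint of the whole table's values, and all 7 members were above this level in both arrays. Among the 11352 detected genes 48.1% were lower and 49.9% higher in the siRNA array, and the median difference was 0. At least 1.5-fold lower were 4 of the 7 members, CEBPA, ONECUT1, GATA4 and HNF4G, against a background of 3.74% of detected genes, and none was 1.5-fold higher, against 6.03%. At least 2-fold lower was 1 member, CEBPA, against a background of 0.863%. Fewer cells with a transcript and less of it per cell cannot be told apart in such bulk RNA.

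**Figure D1:**
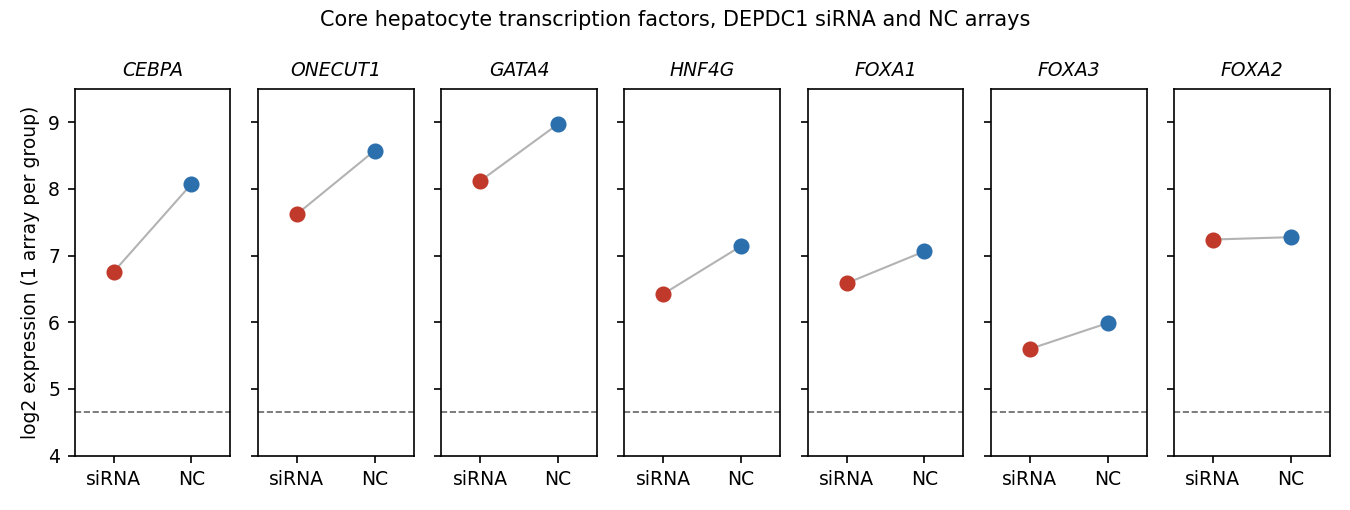
Log2 expression of the 7 measured members (1 panel each) in the DEPDC1 siRNA array (red) and the NC array (blue), with 1 array per group and the detection level of 4.66 as a dashed line. The siRNA point lies under the NC point in every panel, by 1.32 for CEBPA and by 0.04 for FOXA2, and heights are not comparable between panels because each gene has its own probes.

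CEBPA had the largest difference of the members. Its log2 expression was 6.76 in the siRNA array and 8.07 in the NC array, a difference of -1.32 or 2.49-fold lower. The siRNA signal was thus 40.1% of the NC signal. Among the detected genes 43, or 0.379%, had a difference at least as low, CEBPA included. CEBPA-DT, a noncoding transcript that starts next to CEBPA on the opposite strand, was dim in both arrays. It had 4.47 in the siRNA array, under the detection level, and 4.76 in the NC array.

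ONECUT1 had a log2 expression of 7.62 in the siRNA array and 8.58 in the NC array, a difference of -0.95 or 1.94-fold lower. Its value in the siRNA array was 51.6% of that in the NC array, and 0.995% of detected genes were at least as low. It lay next to the 2-fold limit. With each array centred on its own median over detected genes, ONECUT1 also passed that limit, with a difference of -1.01.

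GATA4 had a log2 expression of 8.12 in the siRNA array and 8.97 in the NC array, a difference of -0.85 or 1.81-fold lower. HNF4G, the HNF4 receptor best known from intestine and kidney, had 6.43 in the siRNA array and 7.14 in the NC array, a difference of -0.72 or 1.65-fold lower. Both lay in the lowest few percent of detected genes, with 1.40% at least as low as GATA4 and 2.32% at least as low as HNF4G. HNF4G is also the 1 nuclear receptor among the measured members.

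The FOXA genes had the smallest differences. FOXA1 had a log2 expression of 6.59 in the siRNA array and 7.06 in the NC array, a difference of -0.48. FOXA3, which in mouse liver supports glucose metabolism genes, had 5.60 in the siRNA array and 5.99 in the NC array, a difference of -0.39. FOXA2 had 7.24 in the siRNA array and 7.28 in the NC array, a difference of -0.04. The FOXA2 value sat in the middle of the distribution, since 44.0% of detected genes were at least as low. For FOXA1 that share was 5.82% and for FOXA3 8.69%.

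**Figure D2:**
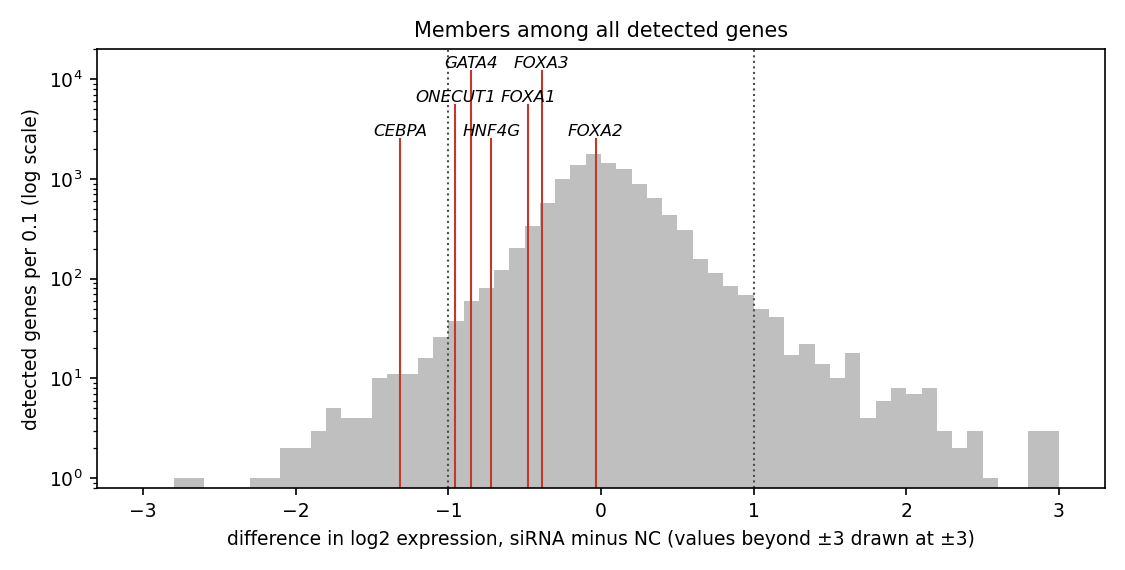
Histogram of the siRNA minus NC difference in log2 expression over 11352 detected genes (grey, log count axis), with the 7 members as red lines and the 2-fold limits dotted. CEBPA lies beyond the lower limit at -1.32, ONECUT1 just inside it at -0.95, and FOXA2 at the centre at -0.04.

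With 1 array per group, the only gauge of measurement noise in the table was how far separate probe sets of 1 gene disagreed. In the 444 genes that had at least 2 detected probe sets, the range of their differences had a median of 0.0866 and a 90th percentile of 0.413 on the log2 scale. The differences of CEBPA, ONECUT1, GATA4, HNF4G and FOXA1 were larger in size than that 90th percentile, while those of FOXA3 and FOXA2 were smaller. Each measured member had 1 probe set, so none could be checked against a probe set of its own. This gauge holds no spread between cultures and may be too small where probe sets share probes.

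Family relatives of the members, a list that also holds CEBPZ for its name only, went both ways. Of 13 listed relatives 12 were measured and 11 detected, 6 lower and 5 higher in the siRNA array. Of the 11, 0 were at least 1.5-fold lower or higher, which in a list of this size is near the backgrounds of 3.74% and 6.03%. Their median difference was -0.03, and they ran from -0.31 for CEBPG to 0.26 for CEBPD. With the detection level raised to the 75th percentile, the median of the relatives was 0.072, on the other side of 0.

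In the C/EBP family, CEBPB, the stress and acute-phase factor that binds the same motif as CEBPA, had 5.90 in the siRNA array and 5.81 in the NC array, a difference of 0.08. CEBPD, an early acute-phase factor, had 5.95 in the siRNA array and 5.69 in the NC array. CEBPG, a short C/EBP protein that pairs with other leucine zipper factors such as ATF4, had 7.72 in the siRNA array and 8.03 in the NC array. CEBPA therefore lay 1.01 to 1.57 log2 units below the differences of CEBPB, CEBPD, CEBPE and CEBPG. CEBPE, a myeloid factor, differed by -0.03 and DDIT3, the stress-induced factor CHOP, by -0.04. CEBPZ, which was listed for its name only, differed by -0.19.

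ONECUT2, which acts beside ONECUT1 in the developing mouse liver, had 7.20 in the siRNA array and 6.98 in the NC array, a difference of 0.22, which is opposite in sign to that of ONECUT1. GATA6, which acts beside GATA4 in early endoderm, had 7.75 in the siRNA array and 7.68 in the NC array, a difference of 0.07. GATA5, the third GATA factor of endoderm, differed by -0.10. Of the blood GATA factors, GATA1 differed by 0.09 and GATA2 by -0.13, while GATA3 was under the detection level in both arrays. GATA1, counted among the 5 higher relatives, had 4.67 in the siRNA array, just over the detection level. In the NC array it had 4.58, under that level. ONECUT1 lay 1.17 log2 units below ONECUT2, and GATA4 lay 0.93 below GATA6.

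**Figure D3:**
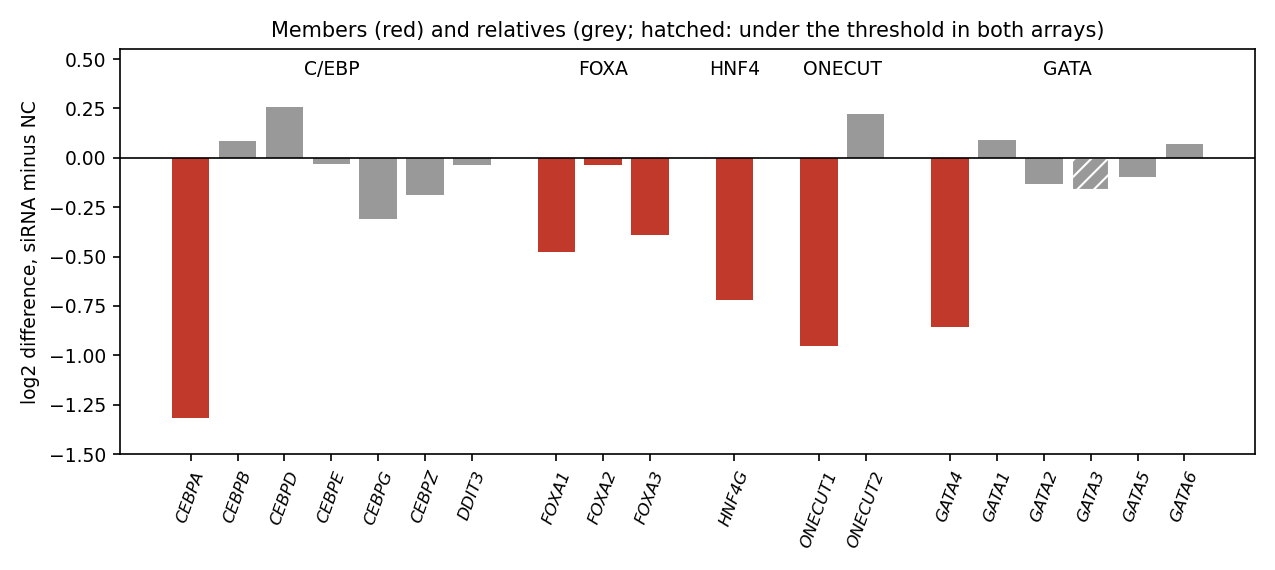
Difference in log2 expression, siRNA minus NC, for the measured members (red) and their listed relatives (grey), with 1 array per group. GATA3 is hatched because it was under the detection level in both arrays, and CEBPZ is listed for its name only. CEBPA, ONECUT1 and GATA4 reach -1.32, -0.95 and -0.85, while the relatives lie between -0.31 and 0.26.

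Other transcription factors of the liver were mostly lower, with a median difference smaller in size than that of the members, but the values of the lists overlapped. Of 32 names listed, 27 genes were measured and 23 detected, 17 lower and 6 higher. The 17 include SALL4, which was under the detection level in the siRNA array (4.58) and just over it in the NC array (4.68). By at least 1.5-fold, 2 were lower and 0 higher, beside the backgrounds of 3.74% and 6.03%. Their median difference was -0.16, and -0.39 with the detection level raised to the 75th percentile. The 2 genes were RORA and NFIL3, both tied to the circadian clock. RORA, an orphan nuclear receptor, had 5.66 in the siRNA array and 6.55 in the NC array. Its difference of -0.88 was larger in size than those of the members GATA4 and HNF4G. NFIL3, a leucine zipper repressor, had 6.69 in the siRNA array and 7.44 in the NC array. Its difference of -0.75 was larger in size than that of HNF4G.

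The next 3 genes by size of difference were NR5A2, HHEX and PROX1. NR5A2, the nuclear receptor of bile acid synthesis genes that is also called LRH-1, had 8.74 in the siRNA array and 9.32 in the NC array, a difference of -0.58. HHEX, a homeobox factor of the liver bud, had 7.91 in the siRNA array and 8.44 in the NC array. PROX1, a homeobox factor that mouse hepatoblasts need to migrate, had 8.18 in the siRNA array and 8.69 in the NC array. These 3 genes, with differences of -0.50 to -0.58, lay close to FOXA1. CREB3L3, the membrane-bound liver factor also called CREBH, differed by -0.39. The highest difference of the list was that of TBX3, a T-box factor of the liver bud, with 6.43 in the siRNA array and 6.13 in the NC array.

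Cofactors and antagonists of the members went both ways. Of 25 listed, 22 were measured and 19 detected, 12 lower and 7 higher, with a median difference of -0.03. The 12 include PPARGC1B, which was under the detection level in the siRNA array (4.62) and just over it in the NC array (4.71). TLE3, a Groucho-type corepressor, had 5.24 in the siRNA array and 5.92 in the NC array, the 1 gene of the list at least 1.5-fold lower. CALR, the chaperone calreticulin, which is also known to hold back translation of CEBPA mRNA, had 10.66 in the siRNA array and 9.99 in the NC array, the 1 gene at least 1.5-fold higher. With 1 of 19 in each direction, these counts lie near the backgrounds of 3.74% and 6.03%. SRC, a kinase known to phosphorylate HNF4A, differed by 0.47. NR2F1, a COUP-TF receptor that binds the same elements as HNF4 proteins, differed by 0.39. NR0B2, the corepressor SHP, differed by -0.38 and ZFPM1, a GATA cofactor, by -0.36.

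The target lists hold genes that textbooks name as bound or activated by each factor, and they share members. SERPINA1, TTR and APOA1 each stand in 4 of the 5 lists, so the lists are not separate observations. Without the members themselves, the 5 lists name 63 genes, of which 53 were measured and 29 detected. Of these 29, 22 were lower and 7 higher. At least 2-fold lower were 11, against the background of 0.863%, and at least 2-fold higher was 1, against 1.94%. The target lists were chosen with earlier results of these data known, so these counts are not independent support. Several targets of adult liver metabolism were under the detection level in both arrays, among them PCK1, G6PC1, TAT, CPS1 and CYP3A4.

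CEBPA targets had a median of -1.01 over 11 detected genes, with 8 lower and 3 higher. One of the 8, HAMP, the gene of the iron hormone hepcidin, was under the detection level in the siRNA array (4.62) and just over it in the NC array (4.83). ORM2 and ORM1, the orosomucoids of the acute phase, had differences of -1.84 and -1.78, and as near-identical copies their probe sets may share signal. TF, the iron carrier transferrin, had 9.90 in the siRNA array and 10.99 in the NC array. CYP2B6, a drug-metabolising cytochrome P450, had 6.45 in the siRNA array and 7.46 in the NC array. Of the higher genes, HPX, the heme carrier hemopexin, had 6.83 in the siRNA array and 6.02 in the NC array. Without a filter on low values, 20 genes were measured and the median was -0.19, no longer the lowest of the target lists.

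FOXA targets had a median of -0.89 over 10 detected genes, with 9 lower and 1 higher, and of -0.25 without the filter. AFP, the fetal plasma protein alpha-fetoprotein, had 8.92 in the siRNA array and 10.89 in the NC array, a difference of -1.97. CPT1A, which carries fatty acids into mitochondria, and AMBP, the precursor of a plasma protease inhibitor, each differed by -1.07. The 1 higher gene was TTR, the thyroid hormone carrier transthyretin, with 9.72 in the siRNA array and 8.31 in the NC array, a difference of 1.41. TTR is also listed as a target of HNF4A, which was not analysed here, and of ONECUT1 and GATA4, both lower.

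HNF4A targets had a median of -0.40 over 14 detected genes, with 10 lower and 4 higher. HSD17B2, a steroid dehydrogenase, had 6.95 in the siRNA array and 8.99 in the NC array, a difference of -2.04. SERPINA1, which encodes alpha-1-antitrypsin, had 6.19 in the siRNA array and 7.86 in the NC array. APOC3 differed by -1.45, APOB by -1.35 and APOA1 by -0.71, all of them apolipoprotein genes. Of the 4 higher genes, TTR had the largest difference, 1.41, and was the 1 gene of the list at least 2-fold higher. The apolipoprotein gene APOA2 was also higher, with 10.07 in the siRNA array and 9.67 in the NC array. So was MTTP, the microsomal transfer protein of lipoprotein assembly, with 8.41 in the siRNA array and 7.90 in the NC array. Without the filter the median was -0.17. With no level of HNF4A given here, these values cannot be set beside that factor.

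GATA4 targets had a median of -0.71 over 7 detected genes, 6 lower (HAMP included) and 1 higher, TTR. Without the filter the median was -0.21. NPPB, the natriuretic peptide B gene known as a GATA4 target in heart, had 7.81 in the siRNA array and 8.80 in the NC array. ALB, the albumin gene, differed by -0.50. ONECUT1 targets had 3 detected genes out of 8 measured, TTR, APOA1 and FOXA2, with a median of -0.04. With the stricter detection level of the 75th percentile, 2 genes were left and the median was 0.69.

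**Figure D4:**
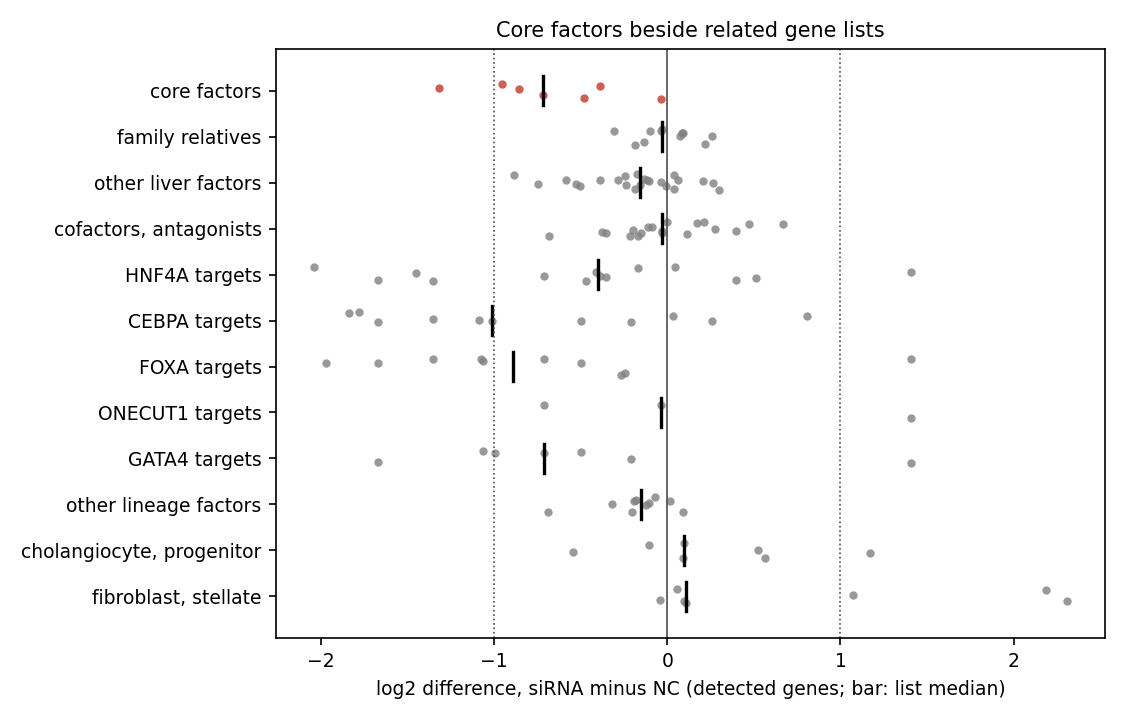
Difference in log2 expression, siRNA minus NC, of each detected gene (points) in the core factors (red) and in related lists (grey), with the list median as a black bar and the 2-fold limits dotted. The core factors, all under 0, have a median of -0.72, against -0.03 for their family relatives, -0.16 for other liver factors and -1.01 for CEBPA targets.

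The label of the cells was checked against liver markers. Of 17 hepatocyte markers, 16 were detected, and HP, the haptoglobin gene, was under the detection level in both arrays. Of the 16 detected markers 13 were lower and 3 higher in the siRNA array, with a median difference of -0.78. Most of the 17 markers also stand in the target lists, so these counts are not a separate observation. One of the 13, AHSG, the fetuin-A gene, was under the detection level in the siRNA array (4.19) and over it in the NC array (5.52). Markers of other cell types were read from the same arrays. Of 14 fibroblast and stellate cell markers 7 were detected, 1 lower and 6 higher, and their median was 0.11. Of these 7, 3 were at least 2-fold higher, against the background of 1.94%. They were LUM (9.95 in the siRNA array and 7.64 in the NC array), FBN1 (7.98 in the siRNA array and 5.79 in the NC array) and COL1A2 (6.50 in the siRNA array and 5.43 in the NC array). The summed linear signal of the 14 markers, a sum over different probes, was 1615 in the siRNA array and 573 in the NC array. Most of the difference between these sums came from LUM and FBN1. The detected markers COL1A1, COL3A1, PDGFRA and DES differed by 0.06, -0.04, 0.09 and 0.11. The stromal markers DCN, THY1, ACTA2 and PDPN were under the detection level in both arrays. Their part in the lower values of the liver factors was not tested. Of the endothelial markers 1 of 10 was detected, of the macrophage markers 4 of 12 and of the lymphocyte markers 1 of 11. Of the 4 detected macrophage markers 1 was lower and 3 higher, with a median of 0.14. LYZ, the lysozyme gene, had 6.05 in the siRNA array and 4.85 in the NC array. It was the 1 macrophage marker at least 2-fold higher, against the background of 1.94%. The lower one was C1QB, with 4.46 in the siRNA array, under the detection level, and 4.94 in the NC array.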

How the data were processed

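Total RNA of Huh-7 cells was measured on 2 Affymetrix arrays, 1 per group. The tools, per the submitters' processing notes, were Transcriptome Analysis Console 3.0 and Affymetrix Expression Console. Background correction, normalization and filtering are not given in the sources used here. The deposited table held 33297 probe sets. Its unit is not labelled. The deposited values, from 1.39 to 12.7 with medians of 4.64 (siRNA) and 4.67 (NC), were taken as log2 expression. Sorted columns differed by at most 0.0997, so values were used as deposited. The number of arrays limits the precision.

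The platform annotation gave 1 gene for 19460 probe sets, of which 19429 matched RefSeq (GRCh38.p14) by Entrez identifier. For 769 genes with several probe sets the one with the highest mean was used. Differences are siRNA minus NC. No test was run. The counting procedure was run on simulated data with known shifts in well-detected genes. That run checks the code and not the noise of these arrays. Genes under the detection level are given by value or as counts. Python 3.11.15 and pandas 2.3.3 were used.

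The members and all gene lists were chosen with earlier results of these data known, so no list is independent support. Named are all members, their measured relatives, and up to 6 detected genes of the largest absolute difference per other list. Genes of the marker lists, and APOA2, MTTP, HPX, HAMP and TBX3, were named after their values were seen, as were the undetected targets. With 2 arrays a pattern is 1 difference, so no gene is named for likeness. Alternatives covered the detection level, the probe set choice, scaling and low values.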

Additional observations from a re-analysis of the deposited data

How the results depend on the processing

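No paired analysis was possible because each group had 1 array, and for the same reason no replicate could be left out. The 6 alternatives were the 75th percentile (6.49) as detection level, no filter, the mean over a gene's probe sets, centring each array on its median over detected genes, quantile normalization, and raising low values to the detection level. Every measured member that the setting kept was lower in the siRNA array under all 6. Only centring and quantile normalization could change a member's difference, however. Each measured member had 1 probe set and lay above the detection level in both arrays, so the other settings left its difference as it was. A move of a median by more than 0.0866, the median disagreement between probe sets of 1 gene, counts as a change. At the 75th percentile, 6 members were kept, FOXA3 being left out, and the median moved to -0.39 for other liver factors, -1.22 for CEBPA targets, -1.07 for FOXA targets and -0.995 for GATA4 targets. At that level it turned to 0.072 for family relatives and, with 2 genes left, to 0.69 for ONECUT1 targets. Without a filter the median was -0.17 for HNF4A targets, -0.19 for CEBPA targets, -0.25 for FOXA targets and -0.21 for GATA4 targets, since undetected targets then enter. Centring shifted the median of all detected genes to -0.06, and 2 members, CEBPA and ONECUT1, were then at least 2-fold lower. The other 102 recomputed values kept their direction and size within these limits. They include members' differences under settings that could not change them. The table holds no scanner intensities, so signal over background could not be read.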

Other observations

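Factors of other endoderm and early lineages were also mostly lower by small amounts. Of 22 listed, 18 were measured and 10 detected, 8 lower and 2 higher in the siRNA array, and the median difference was -0.15. CDX2, the intestinal homeobox factor, had 5.80 in the siRNA array and 6.48 in the NC array, a difference of -0.69, and was the 1 gene of the list at least 1.5-fold lower, against 3.74% of detected genes. PTF1A, a pancreatic factor, differed by -0.32. ISX, an intestinal factor, differed by -0.20. SOX17, a factor of definitive endoderm, differed by -0.19, GSC by -0.18 and NKX6-1 by -0.12. GSC (4.91 in the siRNA array and 5.09 in the NC array) and NKX6-1 (4.76 and 4.88) lay close to the detection level.

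Markers shared by bile duct and progenitor cells went both ways. Of 11 measured markers 7 were detected, 2 lower and 5 higher, with a median of 0.10. PROM1, the surface protein CD133, had 9.38 in the siRNA array and 8.21 in the NC array, the 1 marker at least 2-fold higher, against a background of 1.94%. SPP1, the secreted protein osteopontin, had 7.48 in the siRNA array and 6.92 in the NC array. KRT19, a bile duct keratin, had 8.72 in the siRNA array and 8.20 in the NC array. SOX9, a bile duct and progenitor factor, differed by 0.09. CD24 was lower, with 9.85 in the siRNA array and 10.39 in the NC array. These markers were named after their values were seen.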
